A study of Mus with 12 samples.

Results

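Matrix metalloproteinases are secreted zinc-dependent proteases that cut collagens, elastin and other extracellular proteins. They are made as inactive proenzymes and are held in check by tissue inhibitors and by the broad protease inhibitor alpha-2-macroglobulin. In tumours they are produced by macrophages, neutrophils, fibroblasts and the tumour cells themselves, and several of them also release or clip cytokines and chemokines. The 4 genes described here, of 770 on the panel, were Mmp12, which encodes macrophage elastase, Mmp13, which encodes a collagenase of fibrillar collagens, Mmp7, which encodes the small epithelial protease matrilysin, and Mmp9, which encodes a gelatinase stored in neutrophil granules. They were chosen by name, with the values of all 4 treatment groups already known. Their levels and group differences are therefore given as a description, without a p-value for any of them.

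RNA came from fixed and embedded mouse liver tumours labelled MYC-HCC, hepatocellular carcinoma being the main cancer of liver cells. The 12 tumours were from 12 mice, 3 treated with control IgG, 3 with an antibody against PDL1, 3 with an antibody against CTLA4 and 3 with both antibodies. PDL1 is a ligand of the T cell inhibitory receptor PD-1, and CTLA4 is an inhibitory receptor of T cells. The sources used here do not give strain, age, dose, treatment time or the way in which MYC drives these tumours.

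The values were normalized nCounter counts, digital counts of a coloured barcode probe for each gene, with 1 scaling factor per library and low entries replaced by a floor of 20. The count behind each value above the floor was recovered from the factor. Recovered counts per library totalled 439149 to 864464, factors ran from 0.562 to 2.625, and 49 to 210 genes per library lay at the floor. In a library whose factor exceeds 1, a floor entry can stand for any value up to 20 recovered counts, a limit that reached 52.49 normalized counts. All 8 measured liver markers were above the floor in at least 1 library of every group. The libraries Anti PDL1 2, Anti CTLA4 1 and Anti CTLA4 2 stood apart: they had the 3 highest factors, summed liver markers of 277842 to 620744 normalized counts against 38957 to 200788 in the other 9, and summed proliferation markers of 1553 to 9320 against 15517 to 26500.

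Mmp12 was the only one of the 4 genes that was measured above the floor and above the highest of the 8 negative control probes in all 12 libraries. Its recovered counts ran from 53 to 1471. Mmp13 was above the floor in 11 libraries and above the highest negative probe in 10. Mmp7 met these conditions in 10 and 8 libraries, and Mmp9 in 8 and 7, with recovered counts of 20 to 80 for Mmp9 where it was above the floor. The IgG tumours had all 4 genes above both limits in all 3 mice. In the library Anti PDL1 2, which had the highest negative probe at 30 counts, Mmp13, Mmp7 and Mmp9 were each below that probe.

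**Figure D1:**
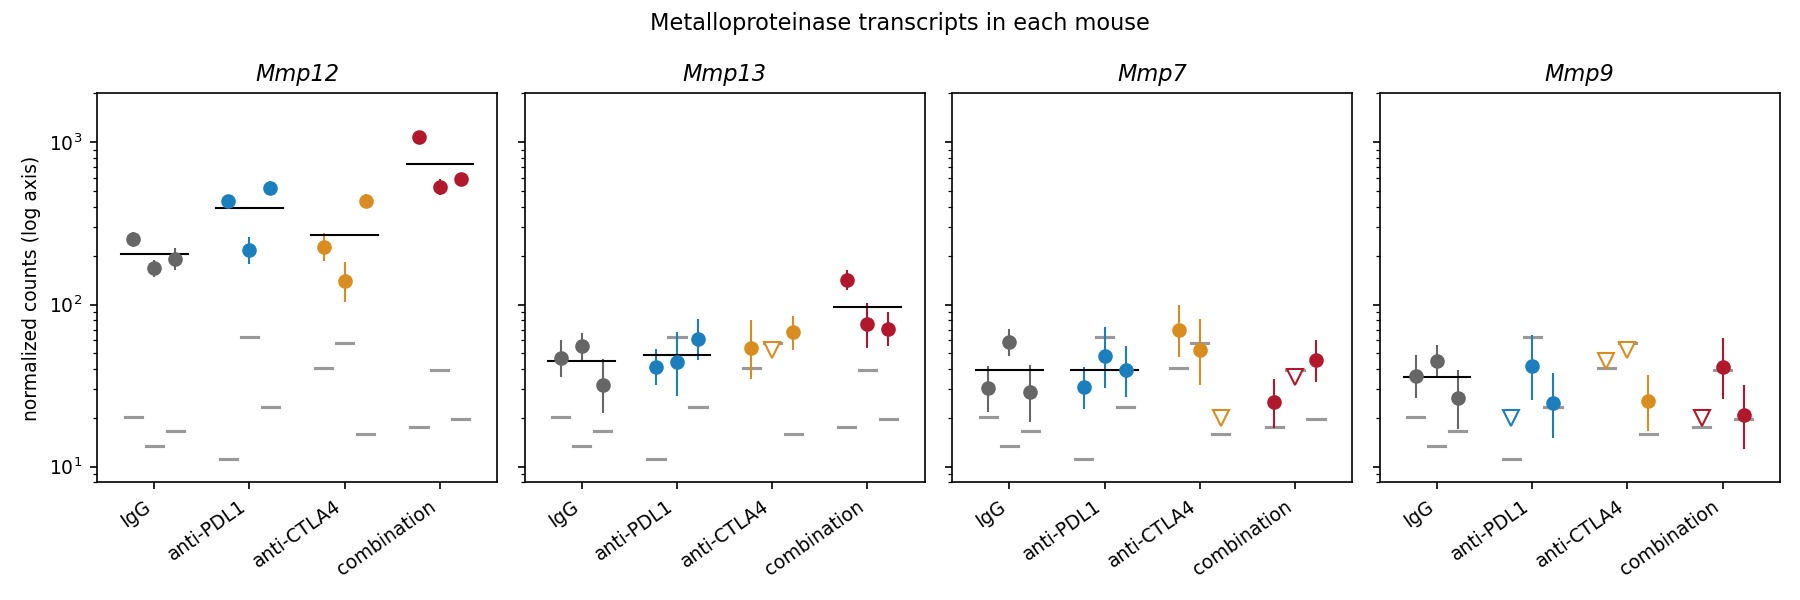
Normalized counts of Mmp12, Mmp13, Mmp7 and Mmp9 (log axis) in each of 3 mice per treatment group. Filled points are values above the floor with exact 95% Poisson intervals of the recovered count, open triangles mark the upper limit of an entry at the floor, grey bars the highest negative probe of that library, and black lines the group mean where no mouse was at the floor. The combination mice sit between 532.46 and 1079.22 for Mmp12, while Mmp7 and Mmp9 lie close to the grey bars in most treated mice.

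Macrophage elastase had its highest level in the tumours treated with both antibodies. In the IgG mice Mmp12 had 252.3, 167.0 and 190.99 normalized counts, a mean of 203.43 ± 43.99 (SD, n = 3). Under the combination the 3 mice had 1079.22, 532.46 and 591.99 normalized counts, a mean of 734.56 ± 299.97 (SD, n = 3). Every combination mouse was above every IgG mouse. The log2 difference between these groups was 1.80 (SE 0.483, limma), equal to 3.47-fold.

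The single antibodies gave less uniform Mmp12 values. Under anti-PDL1 the mice had 435.53, 216.41 and 525.17 normalized counts, a mean of 392.37 ± 158.84 (SD, n = 3). Mice 1 and 3 were above all IgG mice and mouse 2 lay within the IgG range. Under anti-CTLA4 the mice had 227.05, 139.11 and 436.23 normalized counts, a mean of 267.46 ± 152.63 (SD, n = 3), so that 1 mouse was above, 1 within and 1 below the IgG range. The log2 difference from IgG was 0.87 (SE 0.483) under anti-PDL1 and 0.26 (SE 0.483) under anti-CTLA4.

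The low single-antibody values of Mmp12, 216.41, 227.05 and 139.11, came from the 3 libraries that stood apart in factor and liver markers. The remaining single-antibody mice had 435.53, 525.17 and 436.23, each above the highest IgG value of 252.3. Without the 3 libraries the log2 difference of Mmp12 from IgG was 1.25 for the 2 remaining anti-PDL1 mice and 1.12 for the 1 remaining anti-CTLA4 mouse, whose spread had to be taken from the other groups. The group means of the combination and IgG hold none of these libraries, but the SE of their difference uses the residual spread of all libraries. Summed liver markers were also higher in every combination mouse, at 63126 to 200788 normalized counts, than in the IgG mice, at 38957 to 54900. The part of liver tissue in these values was not tested.

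Set in order of their means, the groups ran from the combination through anti-PDL1 and anti-CTLA4 to IgG for Mmp12. Anti-PDL1 overlapped anti-CTLA4, and anti-CTLA4 overlapped IgG. The last step changed direction with the scaling: the log2 difference between anti-CTLA4 and IgG was -0.31 with median scaling and -0.13 with quantile normalization. The lowest combination mouse, at 532.46 (exact 95% Poisson interval 473.6 to 596.6), was above the highest anti-PDL1 mouse, at 525.17 (476.5 to 577.4), by less than the counting error of either value. The log2 difference of Mmp12 was 0.92 (SE 0.483) between the combination and anti-PDL1 and 1.54 (SE 0.483) between the combination and anti-CTLA4. Without the 3 libraries that stood apart it was 0.54 and 0.68. Between same-numbered combination and anti-PDL1 mice it was 1.31, 1.29 and 0.17. With the number as a block, a pairing that the labels do not state, the SE of this difference was 0.358. On the log2 scale the combination differed from the sum of both single-antibody changes by 0.67 (SE 0.683), which is less than its error. The panel median of this term was -0.18, and -0.59 over genes above the floor in all libraries. The sign for Mmp12 depended on the 3 libraries that stood apart. Without them the 1 anti-CTLA4 mouse left exceeded IgG by 1.12, more than the 0.54 by which the combination exceeded anti-PDL1.

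Mmp13, whose product opens the triple helix of fibrillar collagen, was also highest under the combination, at levels nearer to the background. The IgG mice had 46.75, 55.1 and 32.02 normalized counts, a mean of 44.62 ± 11.69 (SD, n = 3), and the anti-PDL1 mice had 41.39, 44.12 and 61.5, a mean of 49.0 ± 10.91 (SD, n = 3). The anti-CTLA4 mice were listed at 53.95, 20 and 67.4, where the entry at the floor can stand for up to 52.49. The combination mice had 141.6, 75.3 and 71.04, a mean of 95.98 ± 39.57 (SD, n = 3). All 3 lay above every mouse of the other groups, while the IgG and single-antibody groups overlapped each other.

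The log2 difference of Mmp13 between the combination and IgG was 1.05 (SE 0.456), or 2.07-fold. Against anti-PDL1 it was 0.90 (SE 0.456, or 0.465 with the replicate number as a block), and 1.75, 0.76 and 0.20 between same-numbered mice. Against anti-CTLA4 the listed values gave 1.10, and 0.65 with the floor entry at its limit. The single antibodies differed from IgG by 0.14 (SE 0.456) under anti-PDL1 and by -0.05 under anti-CTLA4, or 0.39 with the floor entry at its limit. As listed, the combination differed from the sum of both single-antibody changes of Mmp13 by 0.96 (SE 0.645), a value that shrinks with the floor entry at its limit. The lowest combination mouse, at 71.04 (exact 95% Poisson interval 55.6 to 89.5), and the highest of the other mice, at 67.4 (52.7 to 84.9), had overlapping counting intervals. Mouse 1 of the combination was the highest of all 12 for both Mmp12 and Mmp13. Without it the log2 difference from IgG was 1.48 for Mmp12 and 0.73 for Mmp13.

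**Figure D2:**
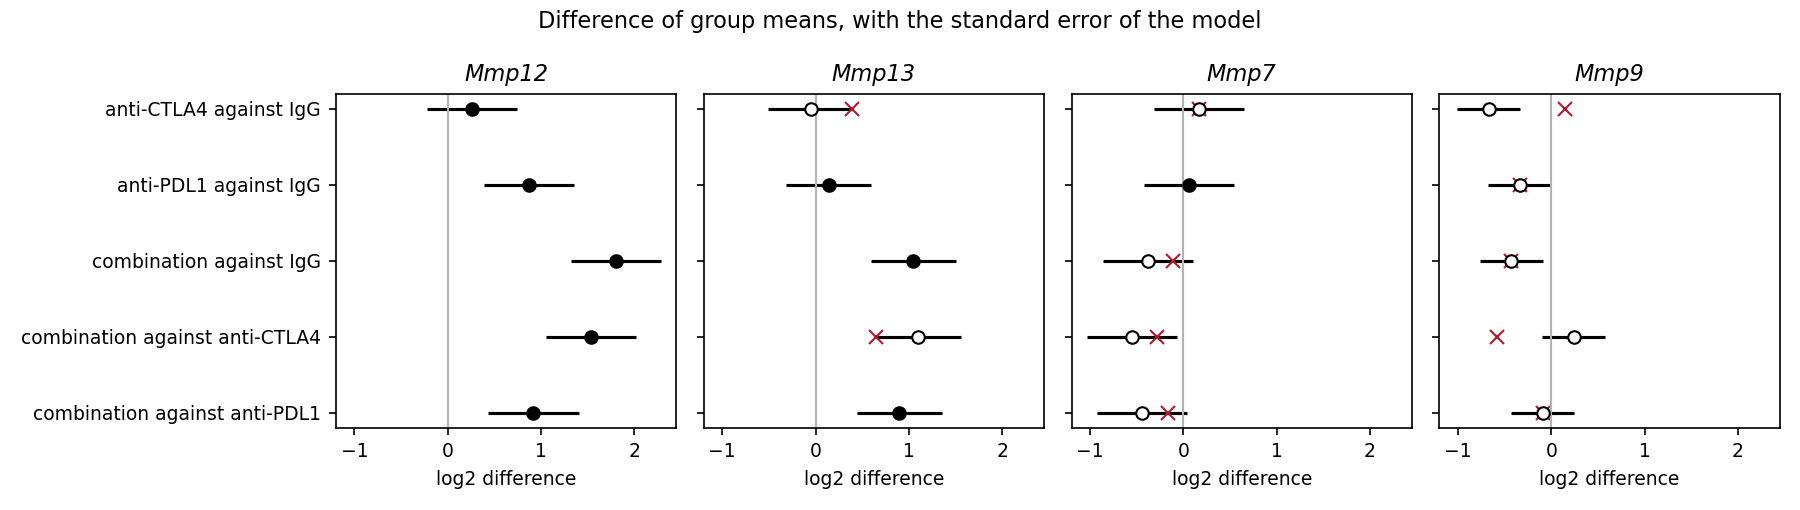
Log2 differences of group means for the 4 genes, with the limma standard error of the listed values, for each antibody treatment against IgG and for the combination against each single antibody. Open points have at least 1 library at the floor in either group, and crosses give the difference with floor entries at their limit. Mmp12 and Mmp13 lie to the right of 0 in the combination against every other group, and the crosses of Mmp9 change side in both comparisons with anti-CTLA4.

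The combination mice lay above all 9 other mice in 2 genes of the 770, Mmp12 and Mmp13, which is 0.26% of the panel and part of what chose them. In GRCm38.p6 these genes are direct neighbours on the chromosome, in a group of 10 Mmp genes of which 4, Mmp13, Mmp12, Mmp1a and Mmp7, are on the panel. The order depended on the scaling. With median scaling or quantile normalization the anti-PDL1 mouse 3 was above the lowest combination mouse for Mmp12, at 9.12 against 8.86 and at 9.10 against 8.90 on the log2 scale. For Mmp13 the lowest combination mouse, at 6.05 under median scaling, was then below IgG mouse 2, at 6.22. Under quantile normalization it was at 5.97, below anti-CTLA4 mouse 3 at 6.40. Every combination mouse stayed above every IgG mouse for Mmp12 under all 3 other scalings tried, and for Mmp13 under housekeeping scaling and quantile normalization but not under median scaling.

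Separation of 3 combination mice from 3 IgG mice was common on the panel. Groups did not overlap, in either direction, in 242 of 770 genes (31.4%), 175 of them (22.7%) higher under the combination. Of the 4 metalloproteinase genes, 2 were among the 175. These counts allow each floor entry any value up to its limit. Of the 4, 0 were separated from IgG under anti-PDL1, beside 20.1% of the panel, and 0 under anti-CTLA4, beside 23.1%, where Mmp9 was separated only in the values as listed. Against anti-PDL1 the combination was higher without overlap in 9 genes (1.17%), and against anti-CTLA4 in 14 (1.82%), with Mmp12 and Mmp13 in both counts. In the limma model across all genes 0 of the 4 passed an adjusted p of 0.05 in the combination against IgG, beside 2.86% of the panel, and 2 of the 4 had an unadjusted p under 0.05, beside 15.5%. In anti-PDL1 and anti-CTLA4 against IgG 0 of the 4 passed, beside 2.99% and 2.60%, and 0 had an unadjusted p under 0.05, beside 19% and 21.4%. In the combination against each single antibody no gene of the panel passed, with or without the replicate number as a block. With anti-CTLA4 mouse 3 left out, 1 gene passed against anti-CTLA4, and without the 3 libraries that stood apart 4 did. An unadjusted p under 0.05 was found there for 0 of the 4 against anti-PDL1, beside 0.649%, and for 2 of the 4 against anti-CTLA4, beside 4.29%. Nothing is read from these counts, because the genes were chosen with the same comparisons known.

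The difference of Mmp12 between the combination and IgG, 1.80 on the log2 scale, ranked 18 of 770 from the highest, with 97.7% of all genes lower. Mmp13 ranked 67, with 91.3% lower. Mmp7 and Mmp9 were on the other side of the median of all genes, which was 0.03, with 18.6% and 16.5% of genes lower. The median difference of the 4 genes, 0.33, thus lies between 2 genes with higher means and 2 with lower means.

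**Figure D3:**
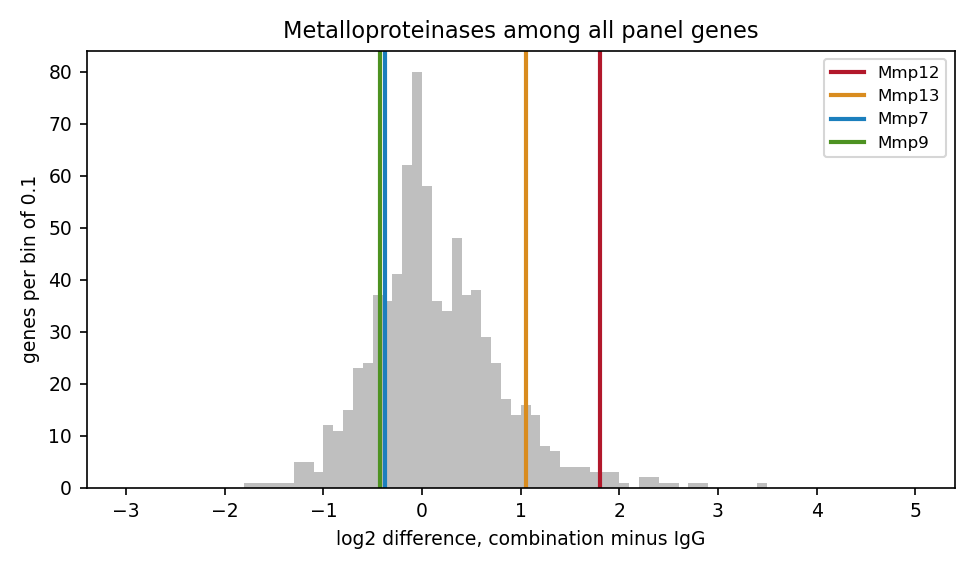
Distribution of the log2 difference between the combination and IgG over all 770 panel genes, in bins of 0.1, with the 4 metalloproteinase genes as vertical lines. Mmp12 at 1.80 and Mmp13 at 1.05 lie in the right part of the distribution, and Mmp7 at -0.38 and Mmp9 at -0.43 left of its centre.

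Matrilysin, a protease of glandular and bile duct epithelium, showed no order of the groups beyond the spread of the mice. The IgG mice had 30.63, 58.48 and 28.7 normalized counts of Mmp7, and the anti-PDL1 mice had 30.87, 48.33 and 39.36. Under anti-CTLA4 it was listed at 69.69, 52.49 and 20, and under the combination at 24.94, 20 and 45.39. All 4 groups overlapped, and each of the last 2 groups had 1 library at the floor.

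The log2 difference of Mmp7 from IgG was 0.06 (SE 0.483) under anti-PDL1, 0.17 (SE 0.483) under anti-CTLA4 and -0.38 (SE 0.483) under the combination, or -0.11 with the floor entry at its limit. The highest Mmp7 values, 69.69 and 58.48, came from 1 anti-CTLA4 and 1 IgG mouse. Both anti-CTLA4 values above the floor, 69.69 and 52.49, were from libraries that stood apart, and they rested on recovered counts of 31 and 20. Without the 3 libraries the 1 anti-CTLA4 mouse left was at the floor, and the listed difference turned from 0.17 to -0.86.

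Gelatinase Mmp9 was near the detection limit in most treated tumours. The IgG mice had 36.27, 44.98 and 26.5 normalized counts, a mean of 35.92 ± 9.25 (SD, n = 3). The anti-PDL1 mice were listed at 20, 42.02 and 24.6, the anti-CTLA4 mice at 20, 20 and 25.28, and the combination mice at 20, 41.23 and 20.72. The floor entries of the anti-CTLA4 mice 1 and 2 can stand for up to 44.96 and 52.49, above the IgG mean.

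The listed log2 difference of Mmp9 from IgG was -0.34 for anti-PDL1, -0.67 for anti-CTLA4 and -0.43 for the combination, each with an SE of 0.337. With floor entries at their limit, the anti-CTLA4 difference was 0.15, so that its direction is not known. The limits of the floor entries in anti-PDL1 mouse 1 and combination mouse 1 were 20, so that both were below every IgG mouse. Including values above the floor, 2 of 3 anti-PDL1 mice, 1 of 3 anti-CTLA4 mice and 2 of 3 combination mice were below every IgG mouse. As listed, all 3 anti-CTLA4 values were below the lowest IgG value of 26.5. With floor entries allowed up to their limit, the 4 groups overlapped.

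One further metalloproteinase gene, the collagenase gene Mmp1a, was on the panel and lay at the floor in 7 of 12 libraries. It was listed at 28.21, 43.86 and 20 in the IgG mice, at 20 in all 3 anti-PDL1 mice, at 49.46, 20 and 24.34 under anti-CTLA4 and at 20, 20 and 23.68 under the combination. All groups overlapped once the limits of the floor entries were used. No gene named as a tissue inhibitor of metalloproteinases (Timp) was on the panel. A2m, which encodes alpha-2-macroglobulin and is also on the liver list, was measured. It ran from 20 in anti-CTLA4 mouse 2 to 4151.7 normalized counts in anti-CTLA4 mouse 3. Its log2 difference from IgG was 0.07 under the combination, -0.62 under anti-PDL1 and -0.83 under anti-CTLA4, each with an SE of 1.8.

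Mmp12 and Mmp13 varied together among the mice. Over 12 libraries, which share the scaling of each library across genes, Pearson's r of log2 values was 0.84 and Spearman's rho 0.83, given as a description for genes chosen with these values known. With the 2 libraries most distant from the Mmp12 median left out, r was 0.65, and for deviations from the group means it was 0.74. Mmp12 had the highest r with Mmp13 among 519 genes above the floor in all libraries. It was followed by Clec7a, which encodes the beta-glucan receptor dectin-1 of myeloid cells (r = 0.78), the mismatch repair gene Msh6 (r = 0.77) and Tlr7, which encodes an RNA sensor of immune cells (r = 0.75). The lowest r with Mmp13 were those of Tlk2 (-0.79) and Tnfsf12 (-0.71). Spearman's rho with Mmp13 was 0.59 for Clec7a, 0.61 for Msh6, 0.76 for Tlr7, -0.57 for Tlk2 and -0.85 for Tnfsf12.

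The genes most like Mmp12 over the 12 libraries, among the 518 others, were the collagen VI chain gene Col6a3 (r = 0.82), the lysosomal housekeeping gene Gusb (r = 0.81), the histone methyltransferase gene Ezh2 (r = 0.80) and Nid2, which encodes a basement membrane protein (r = 0.80). The lowest r were those of the orphan receptor gene Gpr160 and the collagen XVII gene Col17a1, at -0.85 each. Mmp7 had an r of -0.57 with Mmp12 and of -0.38 with Mmp13, with 2 and 3 libraries at the floor in either gene. Its most similar genes were Ldhb, Itga4 and Cd80 (r = 0.78 each) and Tslp (r = 0.75), and the least similar were Cdk6 (-0.77) and Nt5e (-0.76). Mmp9, with 4 libraries at the floor, had an r of -0.31 with Mmp12, 0.01 with Mmp13 and -0.07 with Mmp7. Its most similar genes were Pparg (r = 0.74), Ifna1 (r = 0.68), Tlr4 (r = 0.65) and Ccl4 (r = 0.64), and the least similar were Trem2 (-0.62) and Ltb (-0.61). Spearman's rho with Mmp9 was 0.82 for Pparg, 0.59 for Ifna1, 0.46 for Tlr4 and 0.67 for Ccl4. For Trem2 and Ltb it was -0.56 and -0.62.

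Macrophages are the main known source of Mmp12. Of 18 measured macrophage markers 16 had a higher mean and 2 a lower mean under the combination than under IgG. Their median log2 difference was 0.73, against 0.03 for all genes and 0.28 for genes above the floor in all libraries. In limma 0 of them passed, beside 2.86% of the panel, with 5 at an unadjusted p under 0.05, beside 15.5%. The single antibodies had similar values against IgG, with 15 of 18 higher and a median of 0.65 for anti-PDL1 and 14 of 18 higher and a median of 0.67 for anti-CTLA4. The panel medians for anti-PDL1 and anti-CTLA4 were 0.07 and 0.17 over all genes. Over genes above the floor in all libraries they were 0.32 and 0.51. Between the combination and anti-PDL1 the median of the markers was -0.01, with 9 markers higher and 9 lower, and between the combination and anti-CTLA4 it was 0.36. Their summed level was 6848 to 9490 normalized counts in the IgG mice, 8764 to 24078 in the anti-PDL1 mice, 9716 to 17085 in the anti-CTLA4 mice and 12460 to 14299 in the combination mice, and no marker was at the floor throughout a group. The markers with the smallest p were Cd84, a receptor of myeloid cells (log2 difference 1.07, SE 0.262, limma adjusted p = 0.0721), and Cybb, the catalytic chain of the phagocyte oxidase (1.22, SE 0.465, limma adjusted p = 0.249). In bulk RNA, fewer cells of a type and less RNA per cell cannot be told apart.

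Mmp12 did not follow the summed macrophage markers in every mouse. The highest sums, 24078 in Anti PDL1 2 and 17085 in Anti CTLA4 1, were in 2 mice with Mmp12 within the IgG range. The log2 value of Mmp12 minus the mean log2 value of the macrophage markers was -0.07 to 0.43 in the IgG mice, -1.17 to 1.23 in the anti-PDL1 mice, -0.74 to 1.07 in the anti-CTLA4 mice and 0.61 to 1.95 in the combination mice. The combination mice thus lay above the IgG mice on this scale too, while both single-antibody groups spanned the IgG range. The single-antibody values below that range all came from the 3 libraries that stood apart. The remaining single-antibody mice had 1.23, 0.85 and 1.07, each above every IgG mouse and within the range of the combination mice. The part of macrophage content in the Mmp12 difference was not tested.

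**Figure D4:**
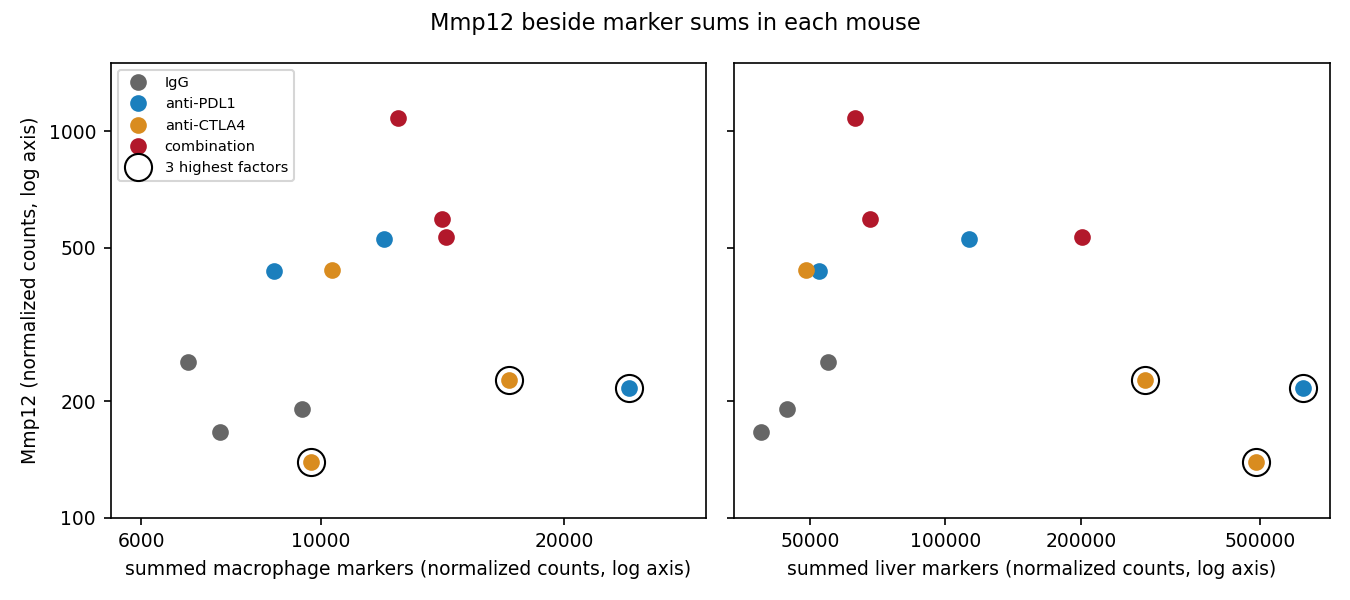
Mmp12 (normalized counts, log axis) in each mouse against the summed normalized counts of 18 macrophage markers (left) and of 8 liver markers (right), both on log axes. Colours are treatment groups, and rings mark the 3 libraries with the highest factors, which have Mmp12 values of 139.11 to 227.05 while 2 of them have the highest macrophage sums.

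Markers of the other possible sources of these proteases gave the following values. Of 11 genes listed as neutrophil markers 1, Ceacam3, passed in limma as lower in each treatment group. The panel shares that passed in either direction were 2.86%, 2.99% and 2.6% under the combination, anti-PDL1 and anti-CTLA4. Under the combination the level was lower by at least 1.63-fold (limma adjusted p = 0.00689), with 2 of 3 combination libraries at the floor. Under anti-PDL1 2 of 3 libraries were at the floor and under anti-CTLA4 3 of 3. Nothing about neutrophils is read from this 1 gene. Fcgr4, an activating Fc receptor gene of neutrophils and macrophages, had a positive log2 difference of 1.13 (SE 0.458, limma adjusted p = 0.299), from 139 ± 18.6 to 306 ± 30.2 normalized counts (SD, n = 3 each). Between the combination and IgG 6 of the 11 neutrophil markers had higher means and 4 lower, with a median log2 difference of 0.06. The summed neutrophil markers were 528 to 677 in the IgG mice, 505 to 1602 in the anti-PDL1 mice, 854 to 2867 in the anti-CTLA4 mice and 784 to 1842 in the combination mice, with Fpr3 at the floor in all groups. Mmp9, the gelatinase of neutrophil granules, was listed at its IgG range or lower in the same treated mice. Of 4 bile duct and epithelial markers 3 had lower means under the combination, with 0 passing in limma. An unadjusted p under 0.05 was found for 2 of them, beside 15.5% of the panel, and these went opposite ways. Prom1, a marker of progenitor and duct cells, had a log2 difference of -0.79 (SE 0.314, limma adjusted p = 0.288) with 2 of 3 combination libraries at the floor, and Spp1 had 1.62 (SE 0.549, limma adjusted p = 0.198). Of 3 fibroblast markers 1 had a higher mean and 2 had lower means under the combination, with a median log2 difference of -0.04. In limma 0 of them passed, with 1 at an unadjusted p under 0.05, beside the same 15.5%. Thy1 had a log2 difference of 1.24 (SE 0.405, limma adjusted p = 0.18) and Fap of -0.12 (SE 0.143, limma adjusted p = 0.786).

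Among 8 other extracellular proteases and inhibitors, Mmp1a included, 0 passed in limma in any treatment group against IgG, and 1 had an unadjusted p under 0.05 in each. Of the whole panel, 2.86%, 2.99% and 2.6% passed under the combination, anti-PDL1 and anti-CTLA4. The panel shares at an unadjusted p under 0.05 were 15.5%, 19% and 21.4%. Ctss, which encodes the elastin-cutting lysosomal protease cathepsin S of macrophages, had the smallest p under the combination, with a log2 difference of 1.81 (SE 0.468, limma adjusted p = 0.0881). Under anti-PDL1 Ctss had 1.94 (SE 0.468, limma adjusted p = 0.0602), where Mmp12 had 0.87, and under anti-CTLA4 0.87 (SE 0.468, limma adjusted p = 0.296). Ctsw, a cathepsin gene of cytotoxic lymphocytes, had -0.51 (SE 0.3, limma adjusted p = 0.487) under the combination. Under anti-CTLA4 Ctsw, not Ctss, was the gene with an unadjusted p under 0.05, at -1.16 (SE 0.3, limma adjusted p = 0.0848). Of 13 matrix proteins 0 passed under the combination or anti-CTLA4, with 3 and 2 at an unadjusted p under 0.05, and 1 passed under anti-PDL1. That gene was Spp1, also on the bile duct list, which encodes osteopontin, a matrix protein that metalloproteinases can cut. It rose from 78.9 ± 18.1 to 494 ± 308 normalized counts under anti-PDL1 (SD, n = 3 each, log2 difference 2.48, SE 0.549, limma adjusted p = 0.0452). This call depended on the processing: the limma adjusted p ran from 0.0129 to 0.24 over the alternatives, and leaving out 1 mouse ended the call for 10 of 12 mice, while the log2 difference stayed between 1.77 and 2.84. Under the combination Col17a1 had a log2 difference of -1.19 (SE 0.415, limma adjusted p = 0.198).

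Of 22 signals and transcription factors known to control Mmp genes, 4 passed in limma as lower in each of the 3 treatment groups and 0 as higher. Of the whole panel, 2.86%, 2.99% and 2.6% passed under the combination, anti-PDL1 and anti-CTLA4. Calls were mostly lower there too, in 21 of 22, 21 of 23 and 20 of 20 genes. The 4 genes were the cytokine genes Il6, Il17a and Ifng and the AP-1 subunit gene Fosl1, each listed at the floor in all 9 treated mice. The bounds under the combination were at least 1.41-fold lower for Il6 (limma adjusted p = 1.07e-06), at least 1.51-fold for Il17a (limma adjusted p = 5.13e-06), at least 1.47-fold for Ifng (limma adjusted p = 0.00166) and at least 1.30-fold for Fosl1 (limma adjusted p = 0.0419). Floor entries enter the model as exact values, so that these p-values overstate the certainty, and with a common floor of 52.49 for all libraries 0 genes of the panel passed. Under anti-CTLA4 the limits of the floor entries allowed no lower bound for Il6, Ifng and Fosl1. The median log2 difference of the 22 genes was 0.05 under the combination against 0.03 for all genes.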

How the data were processed

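Total RNA of 12 liver tumours was measured with the mouse IO360 nCounter panel, per the labels' protocols. The authors deposited a signal for 770 genes, barcode counts that they had normalized, and 14 control probes as whole counts. The sources used here do not give the normalization method or software. The labels do not state that the mice came from separate litters or experiments, so the spread is that between these samples. Factors were recovered as the step of which at least 99.84% of the values above the floor of 20 were whole multiples, within 0.0075 normalized counts. Poisson intervals cover counting error only. All 770 names matched the RefSeq table of GRCm38.p6, 764 as symbols and 6 as synonyms.

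The limma model (version 3.58.1, R 4.3.3) was fitted to log2(value + 1) (mean-variance trend, 4 group means, 8 residual degrees of freedom, two-sided tests, Benjamini-Hochberg adjustment over 770 genes, threshold 0.05). A filter of 20 in at least 3 libraries removed no gene. Differences are on this scale, which understates those of low genes. On simulated data of 770 genes with 200 changed, the model recovered 42.7%, 72.2% and 90.9% of changes of 1, 2 and 3 log2 units in the combination against IgG, and 4.7% of its calls were false. Whether these rates hold for genes with entries at the floor was not tested. Folds given as "at least" set each floor entry of a treated library to its limit. No count test was run, because entries at the floor hold no count.

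The members, the 14 gene lists (284 entries, 156 measured) and the tests were chosen with earlier results of these data known. A2m was named outside the rule that follows, because its product inhibits these proteases. Named by rule were the 4 genes and Mmp1a, of each protease, matrix, signal, macrophage, neutrophil, fibroblast and bile duct list the genes that passed against IgG and the 2 with the smallest p under the combination, and for each of the 4 genes the 4 most and 2 least similar genes. Of the lists without bearing on the 4 genes only counts are given: under the combination 0 of 7 endothelial, 8 liver, 17 proliferation and 18 housekeeping genes passed, 1 of 15 T cell markers (lower) and 2 of 8 B and plasma cell markers (lower), with 2, 0, 1, 2, 2 and 4 at an unadjusted p under 0.05. The panel shares beside these counts were 2.86% passing and 15.5% at an unadjusted p under 0.05. Alternatives were other filters, floors, pseudocounts, scalings and variance models, fewer libraries, and the replicate number as a block. The numbers were shared by labels alone: the correlation of deviations between same-numbered libraries ran from -0.43 to 0.73 and exceeded 0.1 in 9 of 18 pairs, so the fit without the block was kept. For anti-PDL1 and the combination all 3 same-numbered pairs exceeded 0.1 (0.64, 0.66 and 0.30). So did anti-PDL1 mouse 1 with combination mouse 3 (0.5) and anti-PDL1 mouse 3 with combination mouse 1 (0.23). Blocked values for the combination against anti-PDL1 are given only as a description. Their pairing was read from the same data, not from the labels. With the block 0 genes passed there and 14 had an unadjusted p under 0.05, against 0 and 5 without it.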

Additional observations from a re-analysis of the deposited data

How the results depend on the processing

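The limits of these data are 3 mice a group, counts of Mmp13, Mmp7 and Mmp9 close to the negative probes, entries at a floor that differs between libraries, and 3 single-antibody libraries that stood apart. Genes that passed against IgG numbered 22 under the combination, 23 under anti-PDL1 and 20 under anti-CTLA4, and 8, 8 and 7 of them were in the gene lists. With a filter at 50, or a common floor at the highest limit, 0 passed in each of the 3 comparisons, lists included. With median scaling, which moved the median difference of all genes to -0.42, -0.42 and -0.41, 40, 44 and 54 passed, and 14 list genes under anti-PDL1 and 12 under anti-CTLA4. With quantile normalization 15 passed under anti-PDL1, with 4, 4 and 2 list genes, and the split of higher against lower calls was 6 to 14, 5 to 10 and 4 to 14, against 1 to 21, 2 to 21 and 0 to 20 as reported. Fitting only the 2 groups compared gave 48, 8 and 10 genes, with 14 list genes under the combination and 4 under anti-PDL1. With the replicate number as a block, 14 genes passed under the combination, and a block fitted to the combination and anti-PDL1 alone, added after seeing the data, gave 0 genes. The 7 libraries of low factor are 3 IgG, 2 combination, 1 anti-PDL1 and 1 anti-CTLA4, so that each lone library is assumed to vary like the other groups. Among them 37, 1 and 13 genes passed, with 0 list genes under anti-PDL1 and 4 under anti-CTLA4, and 1 and 8 genes passed between the combination and anti-PDL1 or anti-CTLA4, against 0 and 0 as reported. Without the 3 libraries of highest factor, an alternative chosen after seeing the data, 60 passed under the combination and 9 under anti-CTLA4, with 20 and 4 list genes, and 4 between the combination and anti-CTLA4, again with 1 anti-CTLA4 library left. Leaving out each mouse in turn gave 12 to 31, 14 to 32 and 12 to 45 genes, and 6 to 9, 6 to 9 and 6 to 12 list genes. It gave 0 genes between the combination and anti-PDL1 and 0 to 1 between the combination and anti-CTLA4.

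For the 4 metalloproteinase genes, median scaling gave log2 differences from IgG of 1.34 for Mmp12 under the combination, of -0.34 for Mmp13, -0.43 for Mmp7 and -0.83 for Mmp9 under anti-PDL1, and of -1.25 for Mmp9 under anti-CTLA4, which was -0.36 with quantile normalization. The difference of Mmp12 under anti-CTLA4, 0.26 as reported, was -0.31 with median scaling and -0.13 with quantile normalization. Among low-factor libraries, and without the 3 of highest factor, it was 1.12 and that of Mmp7 -0.86. Between the combination and the single antibodies, low-factor libraries gave 0.12 for Mmp7 against anti-PDL1, and 0.72 for Mmp7 and -0.30 for Mmp9 against anti-CTLA4. Without the 3 libraries Mmp12 had 0.68 and Mmp7 0.48 against anti-CTLA4. With floor entries at their limit, also chosen after seeing the data, Mmp9 had 0.15 for anti-CTLA4 against IgG and -0.58 for the combination against anti-CTLA4. The causes of these moves were not tested, apart from the fewer genes or libraries that some alternatives hold. Leaving out each mouse in turn gave 1.48 to 1.99 for Mmp12 and 0.73 to 1.23 for Mmp13 between the combination and IgG.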

Other observations

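Of the 770 genes, 2 had the reverse order of Mmp12 and Mmp13, with all 3 combination mice below all 9 others. Both were picked after their values were seen and have no test. Ccl25, which encodes a chemokine of the gut and thymus, had 70.43, 57.37 and 59.2 normalized counts under the combination and 70.66 to 125.99 in the other mice. Thbd, which encodes the endothelial anticoagulant receptor thrombomodulin, had 79.24, 78.88 and 74.98 under the combination and 79.49 to 125.99 in the others. In both genes the gap between the groups was under 1 normalized count.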
